A study of Mus musculus with 5 samples.

Results

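The nuclear genes for subunits of the oxidative phosphorylation complexes were examined in adult mouse cardiac interstitial cells. Members were all gene symbols of the deposited tables that begin with Ndufa, Ndufb, Ndufc, Ndufs, Ndufv, Sdh, Uqcr, Cox4 to Cox8 or Atp5. Ndufa4l2, Cox4i2 and the assembly factors Ndufaf and Sdhaf were left out. The rule gave 81 of 17902 genes: 36 of complex I, 4 of complex II, 8 of complex III, 17 of complex IV and 16 of complex V. Ndufa4 is counted with complex IV, where it is a known subunit. The rule uses gene symbols alone. Apart from Ndufa4, complexes were assigned by symbol as well, so a member such as Atp5s need not be a structural subunit. Of the 81, 75 reached a mean of 10 CPM (UMIs of a gene scaled to a common library total) over the samples and were tested. The 6 others were Atp5s, Cox6a2, Cox6b2, Cox7a1, Cox7b2 and Cox8b. Next to that limit stood Cox7a1 with a mean of 8.75 CPM below it and Ndufs1 with 34.0 CPM above it.

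Cells of adult mouse hearts were dissociated with collagenase, cleared of cardiomyocytes by centrifugation and straining, and sorted on surface cKit, DDR2 and CD45 before droplet 3' RNA sequencing. The 5 libraries covered 4 sorts. The double-positive cells were split by CD45 into the cKit+/DDR2+/CD45- library and the cKit+/DDR2+/CD45+ library. The single-positive sorts were cKit-/DDR2+, with 1 library, and cKit+/DDR2-, with replicates 1 and 2. The labels give no strain, sex, exact age or treatment, and they do not say whether the replicates came from separate animals. The p-values below measure the spread left between summed samples after library and cell type are fitted, which may be technical. cKit is a receptor tyrosine kinase of stem, mast and some endothelial cells, DDR2 a collagen receptor of fibroblasts, and CD45 a phosphatase of leukocytes.

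Oxidative phosphorylation passes electrons from NADH and succinate through complexes I to IV to oxygen and uses the proton gradient so built to make ATP at complex V. Most subunits are encoded in the nucleus, made in the cytosol and imported, while a small set is encoded in mitochondrial DNA, so that complexes I, III, IV and V are built from both genomes and complex II from the nuclear one alone. Cardiomyocytes are among the richest cells in these complexes. Endothelial cells, fibroblasts and macrophages of the heart are known to draw much of their ATP from glycolysis, and they use the respiratory chain for biosynthesis and signalling as well.

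Cell types were defined by marker RNA within each library. A cell needed at least 2 unique molecular identifiers (UMIs, 1 per captured transcript) of its own marker and 0 of the other 3: Gpihbp1 for capillary endothelium, Npr3 for endocardium, Pdgfra for fibroblasts and C1qa for macrophages. The gates held 2010, 1479, 780 and 3872 cells of the 10961 cells in all. UMIs were summed per library and type where at least 20 cells were found. That gave 14 summed samples of 22 to 3331 cells and 236676 to 40784329 UMIs: 4 capillary, 4 endocardial, 3 fibroblast and 3 macrophage. Median UMIs per cell were lower in the Gpihbp1 gate (5188 to 7292) than in the other gates (9348 to 14270).

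Some libraries and gates departed from their labels. Of the 436 barcodes in cKit+/DDR2- replicate 1, 190 were also in the cKit+/DDR2+/CD45+ library, where their median depth was 622.5 UMIs against 12130 in replicate 1. Other pairs of libraries shared 1 to 3 barcodes. The 190 were left out of cKit+/DDR2+/CD45+. With them, that library gained an endocardial sample of 25 cells, and the counts of lower members fell from 20 to 12 (endocardial) and from 20 to 13 (fibroblast) and moved from 28 to 25 (macrophage). The shares of all genes lower moved from 16.7%, 23.6% and 33.5% to 10.2%, 15.2% and 23.0%. The cKit+/DDR2- and cKit+/DDR2+/CD45- Gpihbp1 gates also held cells with UMIs of Mmrn1 or Prox1, genes of lymphatic endothelium: 31.1% and 39.0% of cells in the replicates and 10.0% in cKit+/DDR2+/CD45-, against 0.209% in cKit-/DDR2+. In the endocardial gate 8.11% to 16.2% of cells had such a UMI. "Capillary" therefore means the Gpihbp1 gate below. All 8 capillary markers, all 8 endocardial, all 8 fibroblast and all 8 macrophage markers were detected in their own gate. Most were also detected in other gates, and the capillary and endocardial lists share Cdh5 and Pecam1. Capillary markers summed to 15760 to 28500 CPM in the capillary gate and 4324 to 5906 CPM in the endocardial gate. Endocardial markers summed to 8430 to 8952 CPM in the endocardial gate and 2149 to 2586 CPM in the capillary gate. Gm42418, a transcript that overlaps ribosomal RNA sequence, took 0.748% to 2.57% of UMIs in the summed samples of cKit-/DDR2+, cKit+/DDR2- replicate 1 and cKit+/DDR2+/CD45+, and 6.44% to 12.4% in those of cKit+/DDR2- replicate 2 and cKit+/DDR2+/CD45-.

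Promoter sequences are shown for the 4 members that were called lower in macrophages in every setting tried (Atp5j, Ndufc2, Ndufs5 and Cox7a2) and, beside them, for 2 muscle isoforms of low level (Cox8b and Cox7a1). Each sequence is from RefSeq (GRCm38.p6), is given 5′ to 3′ on the gene's strand, ends at the annotated start or up to 27 bases before it, and was cut where an exon of GENCODE M21 begins. Capitals mark a match to 1 of the 6 motifs searched.
Atp5j, chr16:84835626-84835875, minus strand: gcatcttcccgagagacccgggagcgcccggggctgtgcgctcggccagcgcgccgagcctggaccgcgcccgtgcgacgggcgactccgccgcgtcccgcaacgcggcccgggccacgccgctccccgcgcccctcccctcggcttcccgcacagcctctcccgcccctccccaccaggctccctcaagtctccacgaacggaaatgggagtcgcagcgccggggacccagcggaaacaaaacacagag
Ndufc2, chr7:97399753-97400002, plus strand: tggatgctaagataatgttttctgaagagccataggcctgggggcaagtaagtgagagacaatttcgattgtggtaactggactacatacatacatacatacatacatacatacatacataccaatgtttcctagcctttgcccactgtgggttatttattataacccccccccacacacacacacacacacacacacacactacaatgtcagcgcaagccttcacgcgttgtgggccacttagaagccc
Ndufs5, chr4:123718203-123718436, minus strand: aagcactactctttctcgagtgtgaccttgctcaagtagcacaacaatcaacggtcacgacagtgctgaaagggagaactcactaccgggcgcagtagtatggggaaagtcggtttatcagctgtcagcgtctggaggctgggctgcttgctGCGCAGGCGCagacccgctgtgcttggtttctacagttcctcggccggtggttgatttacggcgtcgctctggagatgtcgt
Cox7a2, chr9:79759879-79760103, minus strand: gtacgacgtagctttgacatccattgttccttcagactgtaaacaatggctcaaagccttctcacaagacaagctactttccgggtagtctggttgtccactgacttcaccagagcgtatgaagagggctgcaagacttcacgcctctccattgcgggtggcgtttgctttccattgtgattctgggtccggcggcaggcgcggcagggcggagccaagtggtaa
Cox8b, chr7:140900447-140900696, minus strand: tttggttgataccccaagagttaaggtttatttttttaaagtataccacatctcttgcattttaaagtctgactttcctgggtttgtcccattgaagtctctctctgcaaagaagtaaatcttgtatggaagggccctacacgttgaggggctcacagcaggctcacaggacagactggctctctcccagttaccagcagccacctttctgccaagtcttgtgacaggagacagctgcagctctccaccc
Cox7a1, chr7:30183921-30184143, plus strand: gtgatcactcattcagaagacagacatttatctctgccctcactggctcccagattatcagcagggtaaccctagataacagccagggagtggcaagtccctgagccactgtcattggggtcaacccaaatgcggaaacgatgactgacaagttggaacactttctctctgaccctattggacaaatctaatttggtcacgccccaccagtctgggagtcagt

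The motifs were searched on both strands from 250 bases before to 50 bases after the start, in the 74 windows of the 69 members that matched the RefSeq promoter table. The other 12 members had no entry. The consensus of nuclear respiratory factor 1 (NRF1), a paired GCGC motif, stood in 17 members (24.6%) and in 5.2% of all 27025 genes of the table. The ETS-type letters CCGGAAG, bound among others by the GABP complex, stood in 16 members (23.2%; all genes 9.9%). The extended YY1 consensus stood in 5 members (7.2%; all genes 1.0%), and TCAAGGTCA, bound by oestrogen-related receptors, in 2 members (2.9%; all genes 0.5%). TATAAA stood in 7 members (10.1%; all genes 15.7%) and CCAATC in 14 (20.3%; all genes 18.2%). The end of the ETS letters and the start of the YY1 letters can overlap. Among the 6 sequences printed, that of Ndufs5 holds a match, the NRF1 letters 98 bases before the start, and the other 5 hold none. Cox8b has TATAAA just past its start, outside the printed part. Atp5j has a second window in the table, inside exons and not printed, with ETS letters 61 and YY1 letters 88 bases before the second start. These matches describe letters only. Of the 17 members lower in endocardial cells that had a window, 4 held the NRF1 letters, and of the 52 other members 13 did.

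Member genes together took 1.88% ± 0.0814 of all UMIs in capillary cells (SD, n = 4 libraries), 1.60% ± 0.194 in endocardial cells (n = 4), 1.63% ± 0.0956 in fibroblasts (n = 3) and 1.51% ± 0.0392 in macrophages (n = 3). In capillary cells the share was 1.91% in cKit-/DDR2+, 1.87% and 1.77% in the cKit+/DDR2- replicates and 1.96% in cKit+/DDR2+/CD45-. In endocardial cells of the same libraries, in that order, it was 1.76%, 1.77%, 1.38% and 1.495%. Every endocardial sample lay below the capillary sample of its own library, while the ranges overlapped narrowly, with 1.773% as the highest endocardial and 1.770% as the lowest capillary value. Fibroblasts stood at 1.65% in cKit-/DDR2+, 1.53% in cKit+/DDR2- replicate 2 and 1.72% in cKit+/DDR2+/CD45-, and macrophages at 1.49%, 1.56% and 1.498% in the cKit+/DDR2- replicates and cKit+/DDR2+/CD45+. Neither type reached the lowest capillary value. The widest 95% interval (exact Clopper-Pearson, counting error only) was that of the 22 macrophages of cKit+/DDR2- replicate 1, 1.44% to 1.53%. The summed share was given no test.

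**Figure D1:**
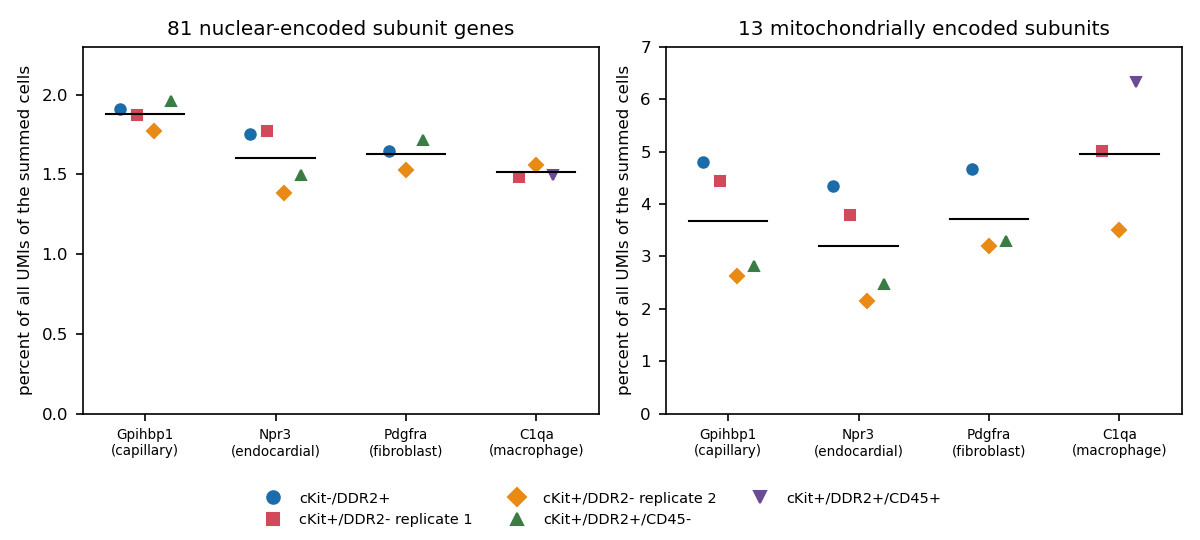
Percent of all UMIs (vertical axes) in the 81 nuclear-encoded subunit genes (left) and the 13 mitochondrially encoded subunits (right), 1 point per library and gate, with the mean over libraries as a line. The nuclear share lies between 1.38% and 1.96% in every sample, and the mitochondrial share between 2.16% and 6.34%, with the 2 libraries low in it (diamonds and triangles) the same in the capillary, endocardial and fibroblast gates.

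The share of the 13 mitochondrially encoded subunits moved with the library more than with the cell type. In capillary cells it was 4.81%, 4.45%, 2.63% and 2.81% in the library order above, and in endocardial cells 4.35%, 3.79%, 2.16% and 2.48%. The 2 libraries with little mitochondrial RNA, cKit+/DDR2- replicate 2 and cKit+/DDR2+/CD45-, are those rich in Gm42418, and the part of this in the share was not tested. The ratio of mitochondrial to nuclear subunit UMIs was 3.38, 2.25 and 4.23 in macrophages, against 1.43 to 2.52 in capillary cells, so that the ranges overlapped. No cell of the deposited tables exceeds 10% mitochondrial UMIs, so cells above that level are not analysed here. Complex I gave 33.5% to 33.9% of the member UMIs in fibroblasts, 30.4% to 31.97% in capillary and endocardial cells and 28.8% to 29.4% in macrophages, with no overlap between these 3 ranges. Over all samples complex IV gave 26.4% to 30.2%, complex V 26.9% to 28.8%, complex III 9.55% to 11.3% and complex II 1.45% to 2.18%.

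Cell types were compared within libraries with limma on log2(CPM + 5), library as a covariate and all 14 samples in 1 fit. P-values were adjusted over all 8764 genes tested, and a gene was called at adjusted p under 0.05. The scale understates changes of low genes. All 3 comparisons use the same capillary samples, so their results are not independent. Macrophages and capillary cells stood together only in the 2 cKit+/DDR2- libraries. The cKit+/DDR2+/CD45+ library holds only a macrophage sample, which its library term absorbs. Its 3331 macrophages therefore do not enter the fitted differences. Without that library the members' median in macrophages stayed at -0.26, with 28 lower. The cKit-/DDR2+ and cKit+/DDR2+/CD45- libraries enter the macrophage comparison through the library and cell type terms of the fit.

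**Figure D2:**
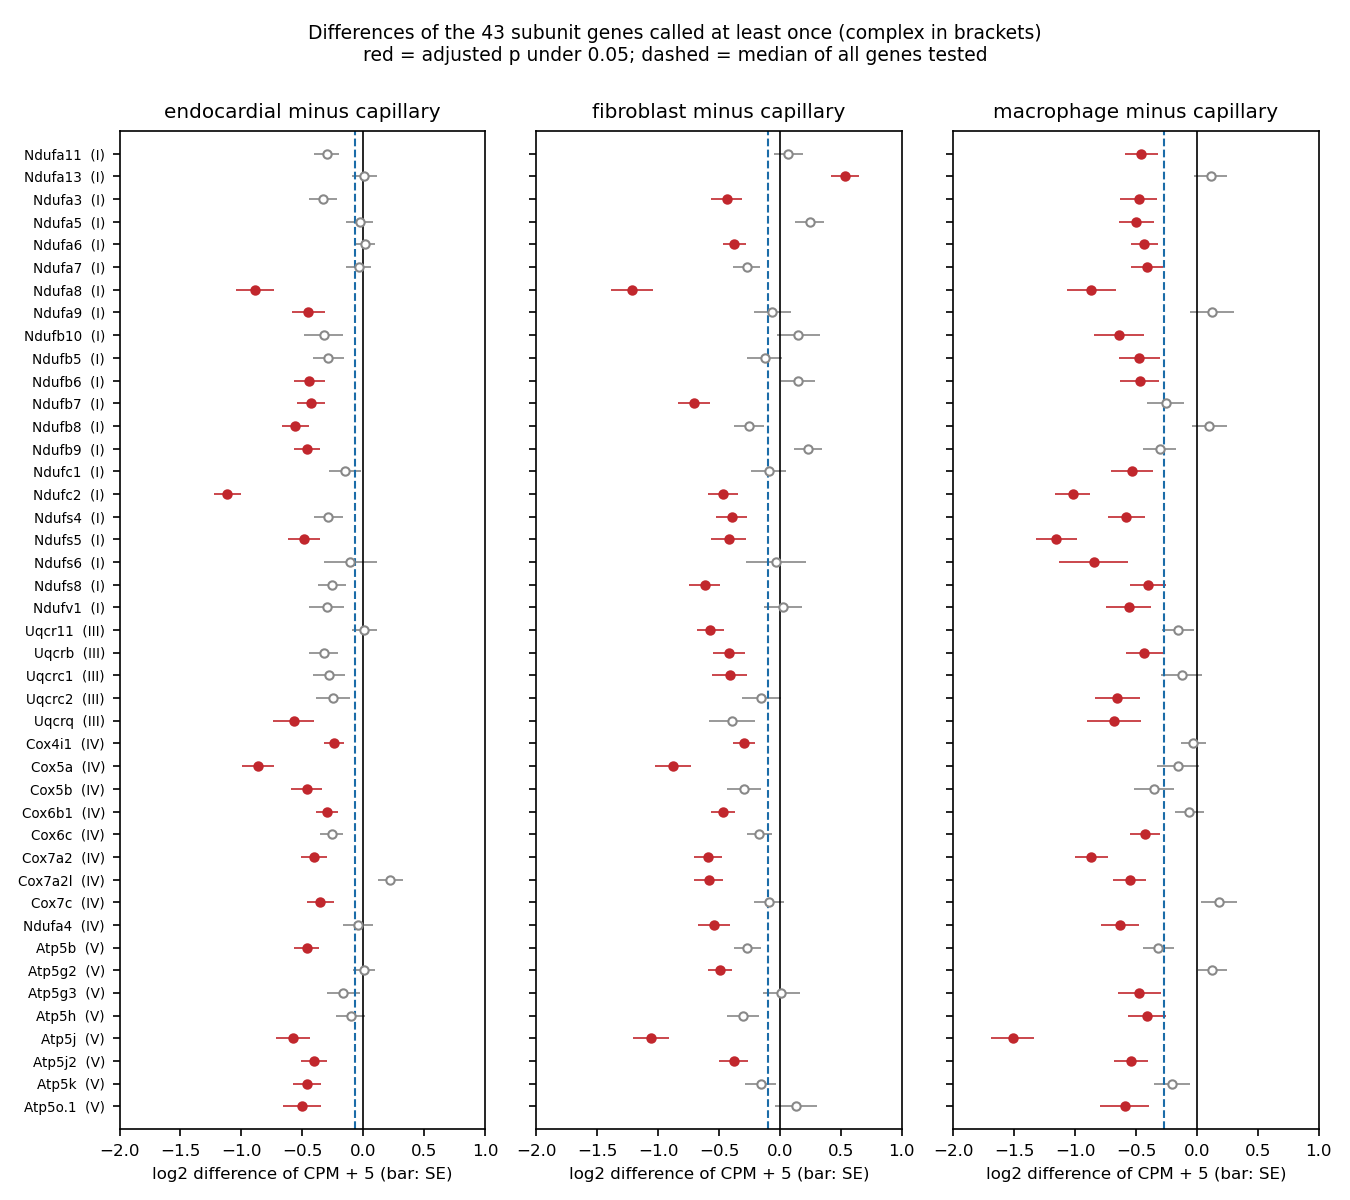
Log2 difference of CPM + 5 (horizontal axes, bars are standard errors) of the 43 members called in at least 1 comparison against capillary cells, by complex, in endocardial cells, fibroblasts and macrophages. Filled red points passed adjusted p under 0.05 in limma, and the dashed line is the median of all genes. Red points lie left of 0 except Ndufa13 in fibroblasts (0.53).

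Endocardial cells had lower levels of 20 of the 75 members than capillary cells, and no member was higher. Each of the 20 was lower in 4 of 4 libraries, the same libraries that gave the calls. The leading members were subunits of complex I (Ndufc2 and Ndufa8), complex IV (Cox5a) and complex V (Atp5j), 1.49-fold to 2.17-fold lower. The 20 are 26.7% of the members, where 16.7% of all genes were lower and 11.8% higher. The median difference of the members was -0.25 on the log2 scale, against -0.07 for all genes, and 64 of 75 were below 0. At an unadjusted p under 0.05, 33 members were lower and 0 higher in limma, and with voom weights 45 were lower and 1, Sdha, higher at adjusted p under 0.05. With voom, 29.5% of all genes were lower. By complex, 8 of 36 members of complex I were lower, 0 of 4 of complex II, 1 of 8 of complex III, 6 of 12 of complex IV and 5 of 15 of complex V. The count fell to 6 of 75 without cKit+/DDR2+/CD45-, where 10.6% of all genes were lower. It fell to 9 of 75 without cKit+/DDR2- replicate 2, where 12.4% of all genes were lower. In neither setting did the members exceed the share of all genes. Cox5a, Ndufa8, Ndufb8 and Ndufc2 were called in each of the 20 alternative settings tried. The endocardial gate also carried RNA of fibroblast marker genes: the 8 fibroblast markers summed to 2949 to 6268 CPM there, against 26.6 to 991 CPM in capillary cells and 45830 to 66270 CPM in fibroblasts. The source of this RNA and its part in the result were not tested.

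Ndufc2, a small subunit of the membrane arm of complex I, showed the largest endocardial difference. It measured 245, 258, 241 and 270 CPM in capillary cells of cKit-/DDR2+, cKit+/DDR2- replicates 1 and 2 and cKit+/DDR2+/CD45-. In endocardial cells of these libraries it measured 109, 126, 101 and 122 CPM. The groups did not overlap, and the endocardial values spread with an SD of 11.54 CPM (n = 4) around a mean of 114.5 CPM. The log2 difference was -1.12 ± 0.110 (SE; adjusted p = 1.6e-05, limma), 2.17-fold lower and lower in 4 of 4 libraries. In fibroblasts Ndufc2 measured 176, 171 and 202 CPM, 1.38-fold lower than in capillary cells (adjusted p = 0.00947), a call lost without cKit+/DDR2+/CD45- and with the shared barcodes. In macrophages it measured 106, 136 and 136 CPM, 2.03-fold lower (adjusted p = 0.000113, lower in 2 of 2 libraries).

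Ndufa8 encodes an accessory subunit of complex I that faces the intermembrane space. In capillary cells it measured 294, 202, 206 and 293 CPM, with both cKit+/DDR2- replicates below the other 2 libraries. Endocardial cells held 158, 132, 106 and 127 CPM, and fibroblasts 117, 102 and 89.6 CPM. Neither group overlapped the capillary one. The log2 differences were -0.89 ± 0.156 (SE; adjusted p = 0.00127) and -1.22 ± 0.173 (adjusted p = 0.000147). Macrophages held 161 CPM in cKit+/DDR2- replicate 1, from 22 cells, and 90.3 and 98.9 CPM in the other 2 libraries. Their difference of -0.87 (adjusted p = 0.00444) lost its call without cKit+/DDR2- replicate 2 (log2 difference -0.47, adjusted p = 0.137).

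Cox5a, a nuclear subunit of cytochrome c oxidase that faces the matrix, was lower in endocardial cells and in fibroblasts. Capillary cells held 317, 256, 244 and 275 CPM, endocardial cells 178, 166, 122 and 130 CPM, and fibroblasts 157, 137 and 152 CPM. Both groups lay wholly below the capillary samples. The folds were 1.82 (adjusted p = 0.000518) and 1.84 (adjusted p = 0.000545). Macrophages, at 194, 271 and 259 CPM, overlapped the capillary range, and their log2 difference of -0.16 ± 0.174 did not pass (adjusted p = 0.487).

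Fibroblasts differed from capillary cells in both directions: 20 of 75 members were lower and 1, Ndufa13, was higher. The 20 lower members (26.7%) stood beside 23.6% of all genes lower, a share near the background, and the 1 higher member (1.33%) beside 17.0% of all genes higher. The median difference of the members was -0.13, against -0.10 for all genes. By complex, 8 members of complex I were lower, 0 of complex II, 3 of complex III, 6 of complex IV and 3 of complex V. The count was 12 without cKit-/DDR2+, 13 without cKit+/DDR2- replicate 2 and 12 without cKit+/DDR2+/CD45-. Of all genes, 19.5%, 18.2% and 16.25% were lower in these settings. Atp5g2, Atp5j, Cox5a, Cox6b1, Cox7a2, Cox7a2l, Ndufa8, Ndufb7, Ndufs8 and Uqcr11, as well as Ndufa13, were called in all 20 alternatives.

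Ndufa13, also known as GRIM-19, is a complex I subunit needed for assembly of the enzyme. It measured 372, 365 and 392 CPM in fibroblasts of cKit-/DDR2+, cKit+/DDR2- replicate 2 and cKit+/DDR2+/CD45-. Capillary cells held 273, 256, 263 and 247 CPM. Every fibroblast sample lay above every capillary sample, and the log2 difference was 0.53 ± 0.116 (SE; adjusted p = 0.00328; limma). Endocardial cells, at 216 to 319 CPM, spanned the capillary range, and macrophages held 279, 269 and 271 CPM.

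Other members lower in fibroblasts included Ndufb7 of the complex I membrane arm (1.63-fold; adjusted p = 0.00104), Ndufs8, an iron-sulfur core subunit of complex I (1.54-fold; adjusted p = 0.00213), and Uqcr11, a small subunit of complex III (1.49-fold; adjusted p = 0.00142). Ndufs8 measured 73.4, 72.2 and 69.4 CPM in fibroblasts and 105 to 119 CPM in capillary cells. Cox7a2l, which helps complexes III and IV to join into supercomplexes, measured 283, 285 and 226 CPM in fibroblasts and 373 to 449 CPM in capillary cells, 1.502-fold lower (adjusted p = 0.00163). It was also 1.47-fold lower in macrophages (adjusted p = 0.00587), a call lost in 3 of the 20 alternatives, while endocardial cells stood at 433 to 535 CPM, a log2 difference of 0.22 that did not pass (adjusted p = 0.137). Ndufa4 likewise was 1.45-fold lower in fibroblasts (adjusted p = 0.00667) and 1.55-fold lower in macrophages (adjusted p = 0.00604), and in endocardial cells its log2 difference was -0.04 (adjusted p = 0.837). Without cKit-/DDR2+ the fibroblast call of Ndufa4 was lost (adjusted p = 0.0672), and its macrophage call was lost in 3 alternatives, among them without cKit+/DDR2- replicate 1 (adjusted p up to 0.182).

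Macrophages had lower levels of 28 of the 75 members than capillary cells (37.3%), and 0 were higher. Of all genes, 33.5% were lower and 14.4% higher. Each of the 28 was lower in 2 of 2 libraries, which also entered the calls. The Gpihbp1 gates of these libraries held the largest part of lymphatic-marked cells (31.1% and 39.0%). The members' median of -0.26 matched that of all genes, -0.27. At an unadjusted p under 0.05, 34 members were lower and 0 higher. Complex I gave 16 of the 28, complex III 3, complex IV 4, complex V 5 and complex II 0. The count depended on the libraries, the cells kept and the scaling. Without lymphatic-marked cells in the Gpihbp1 gate, 22 were lower, beside 30.6% of all genes. Without cKit+/DDR2- replicate 1, where 22 macrophages were summed, 7 members were lower, and without cKit+/DDR2+/CD45- 16 were. The shares of all genes lower were 20.8% and 29.2%. With at least 50 cells per sample, which also leaves out that replicate 1 sample, 8 were lower, beside 26.1% of all genes. With median-of-ratios size factors in place of totals the median of all genes moved from -0.27 to -0.09, 1695 genes were higher and 2227 lower in place of 1264 and 2936, and 6 members were lower and 4 higher (Atp5g2, Cox7c, Cox8a and Ndufa13). Without cells that held a UMI of a cardiomyocyte marker, 6 were lower, but this left 17 macrophages in cKit+/DDR2- replicate 1, under the minimum of 20, so that sample was left out as well and the 2 changes cannot be told apart. There, 20.1% of all genes were lower. In each of these settings the members were lower less often than all genes. Atp5j, Cox7a2, Ndufc2 and Ndufs5 were called lower in all 20 alternatives.

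Atp5j encodes coupling factor 6, which sits in the stalk that holds the catalytic head of ATP synthase still, and it had the largest difference of any member. Capillary cells held 731, 601, 530 and 712 CPM. Endocardial cells held 483, 462, 374 and 396 CPM, and fibroblasts 355, 305 and 280 CPM. Macrophages held 169, 253 and 241 CPM. No sample of these 3 types reached the lowest capillary sample. The log2 differences were -0.58 ± 0.137 (SE; adjusted p = 0.00785) for endocardial cells, -1.06 ± 0.151 (adjusted p = 0.000147) for fibroblasts and -1.51 ± 0.178 (adjusted p = 2.56e-05) for macrophages, 2.85-fold lower. The endocardial call of Atp5j was lost without cKit+/DDR2+/CD45- (adjusted p = 0.0690). Atp5j (chr16:84827866-84835625, minus strand, mm10) overlaps the start of Gabpa, on the plus strand, by 701 bases. The overlap lies at the annotated start of both genes, while the sequencing was of 3' ends. Whether the counting used strand is not given in the sources used here. It is therefore not known whether reads within this overlap were told apart. Gabpa, a subunit of the GABP complex that binds the ETS letters, was 1.70-fold lower in endocardial cells (adjusted p = 0.00511) and 1.66-fold lower in macrophages (adjusted p = 0.0166).

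Ndufs5, an accessory subunit of complex I on the intermembrane space side, measured 285, 251, 235 and 286 CPM in capillary cells and 97.2, 122 and 116 CPM in macrophages. The groups lay far apart. It was 2.23-fold lower in macrophages (adjusted p = 0.000164), 1.40-fold lower in endocardial cells (adjusted p = 0.0155) and 1.34-fold lower in fibroblasts (adjusted p = 0.0363). Cox7a2, the form of cytochrome c oxidase subunit 7a found in most tissues, measured 490, 464, 442 and 474 CPM in capillary cells, and 232, 260 and 255 CPM in macrophages, 1.83-fold lower (adjusted p = 0.000259). It was 1.32-fold lower in endocardial cells (adjusted p = 0.0127) and 1.51-fold lower in fibroblasts (adjusted p = 0.00147). The fibroblast call of Ndufs5 was lost in 8 of the 20 alternatives, among them without cKit-/DDR2+ and without cKit+/DDR2+/CD45-. The endocardial call of Ndufs5 was lost without cKit+/DDR2+/CD45- (adjusted p = 0.112), and that of Cox7a2 without that library, without cKit+/DDR2- replicate 2 or with the shared barcodes (adjusted p = 0.0718, 0.0771 and 0.0672).

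**Figure D3:**
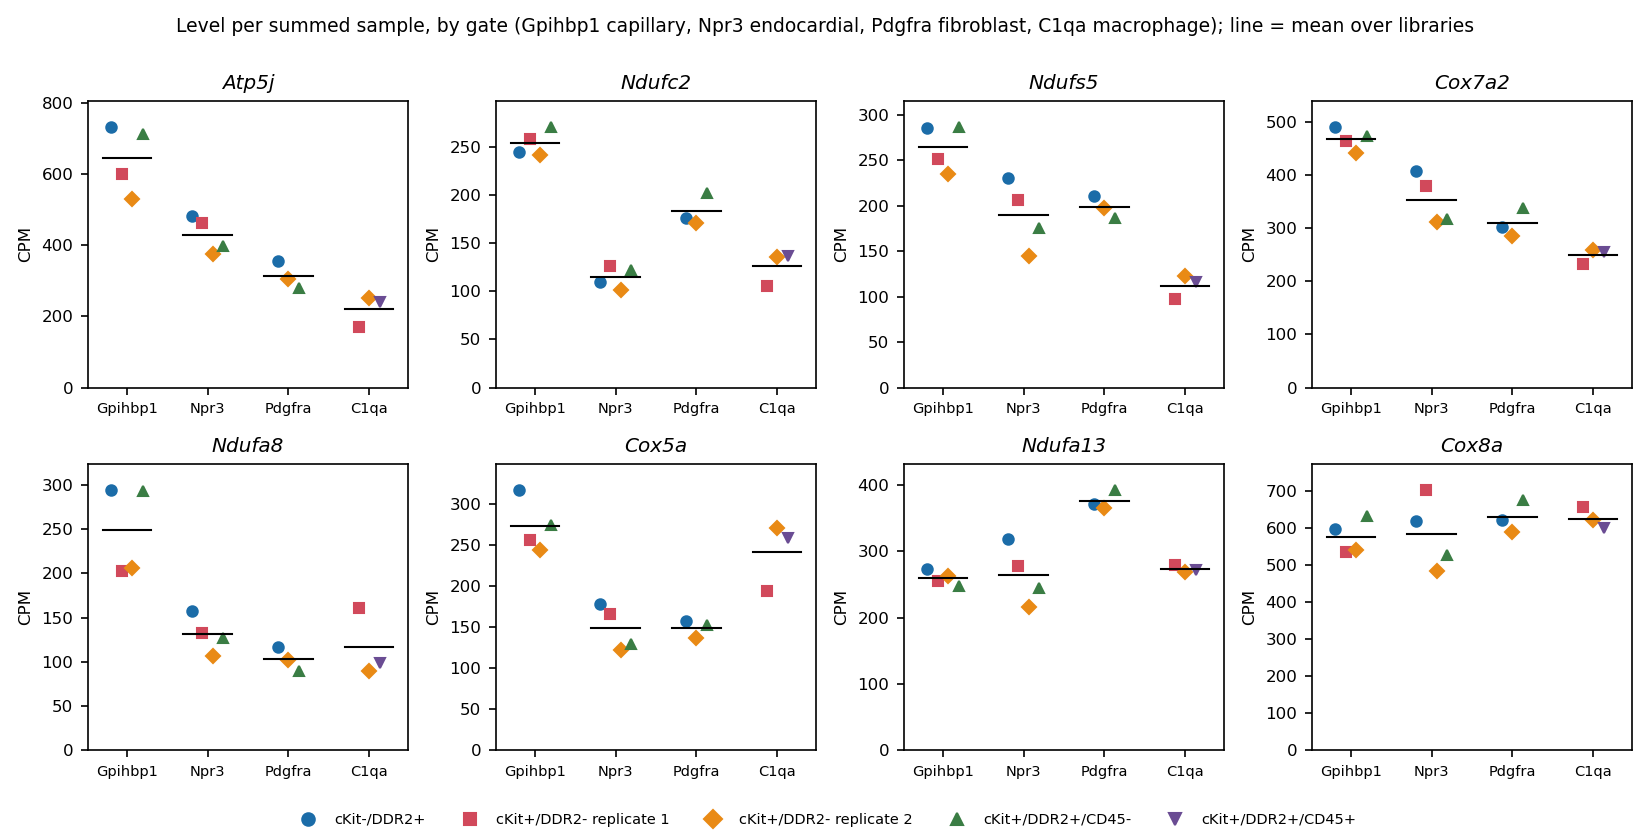
Level in CPM (vertical axes) of 8 members in each of the 14 summed samples, by gate, with the mean over libraries as a line. Atp5j falls from 530 to 731 CPM in the capillary gate to 169 to 253 CPM in macrophages, Ndufa13 is highest in fibroblasts (365 to 392 CPM), and Cox8a overlaps between all gates.

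Among the remaining members with a called difference, Uqcrq and Ndufs6 in macrophages depended on the cKit+/DDR2- replicate 1 sample. Uqcrq, a small subunit of complex III, measured 92.95, 216 and 182 CPM in macrophages against 236 to 255 CPM in capillary cells. Ndufs6, a zinc-binding subunit of complex I, measured 42.3, 107 and 75.5 CPM against 125 to 153 CPM. Both values of replicate 1 rest on 22 and 10 UMIs. The macrophage calls of Uqcrq, Ndufs6 and Uqcrc2 were lost without the whole replicate 1 library. With at least 50 cells per sample, which leaves out that macrophage sample, Uqcrc2 was still called lower, and Uqcrq and Ndufs6 were not. In endocardial cells, Uqcrq measured 151 to 181 CPM, 1.49-fold lower than in capillary cells (adjusted p = 0.0262). That call was lost in 5 of the 20 alternatives, among them without cKit-/DDR2+ and without cKit+/DDR2+/CD45- (adjusted p up to 0.124). Ndufb8 measured 117 to 198 CPM, 1.47-fold lower (adjusted p = 0.00289) although its highest endocardial sample overlapped the lowest capillary one. Atp5o.1, a symbol read here as the stalk subunit gene Atp5o, was 1.42-fold lower in endocardial cells and 1.51-fold lower in macrophages. GENCODE M21 has 2 overlapping records of that name on chromosome 16, so its counts are uncertain, and its endocardial call was lost in 8 and its macrophage call in 9 of the 20 alternatives.

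In the main fit, the members of complex II, which also serves the tricarboxylic acid cycle, gave no call in any comparison. In endocardial cells, Sdha was called higher with cells gated by their higher marker, with voom and without lymphatic-marked cells. Sdhb and Sdhd were called lower there with that gate, with at least 50 cells per sample and with voom. Sdhd was also called lower without cells with cardiomyocyte UMIs. Sdha, the flavoprotein, measured 87.2 to 97.1 CPM in capillary cells, 100 to 118 CPM in endocardial cells, 69.3 to 89.6 CPM in fibroblasts and 80.9 to 99.7 CPM in macrophages. The endocardial samples of Sdha all lay above the capillary ones, and its log2 difference was 0.21 ± 0.101 (adjusted p = 0.156). Sdhb, the iron-sulfur subunit, measured 82.5 to 96.6 CPM in capillary and 57.8 to 86.2 CPM in endocardial cells, a log2 difference of -0.33 ± 0.148 (adjusted p = 0.118). The membrane anchors Sdhc and Sdhd differed by -0.02 and -0.26 in endocardial cells. A p that misses the threshold does not show that these levels were equal.

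The 3 genes for the c-ring subunit of ATP synthase, Atp5g1, Atp5g2 and Atp5g3, encode 1 mature protein. Atp5g2 was 1.41-fold lower in fibroblasts, at 220, 221 and 264 CPM against 308, 390, 323 and 365 CPM in capillary cells (adjusted p = 0.00201). Atp5g1 and Atp5g3 did not pass in fibroblasts (log2 differences 0.16 and 0.01). In macrophages Atp5g3 was 1.39-fold lower (adjusted p = 0.0446), a call lost in 11 of 20 alternatives, while Atp5g1 and Atp5g2 differed by 0.18 and 0.13, neither passing. In endocardial cells none of the 3 passed (log2 differences -0.19, 0.01 and -0.16). Cox6b1, a subunit of complex IV, measured 430 to 458 CPM in capillary cells and 296 to 347 CPM in fibroblasts, 1.38-fold lower (adjusted p = 0.00297). It was 1.23-fold lower in endocardial cells (adjusted p = 0.0308), a call lost in 8 of the 20 alternatives. Of the 75 members, 32 were called in no comparison of the main fit. Besides complex II they included Cox8a, Cox6a1, Atp5a1 and Atp5e.

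Heart and skeletal muscle use their own isoforms of 3 cytochrome c oxidase subunits, Cox6a2, Cox7a1 and Cox8b, in place of Cox6a1, Cox7a2 and Cox8a. The muscle isoforms stayed at or below 19.1 CPM in every sample. Cox6a2 measured 6.78, 2.49, 11.9 and 12.1 CPM in capillary cells, 0.876 to 2.87 CPM in endocardial cells, 1.17, 0 and 0 CPM in fibroblasts, and 0, 14.9 and 3.19 CPM in macrophages. The 12 cardiomyocyte markers, all detected, summed to 65.5 to 179 CPM in capillary cells, 23.6 to 63.8 CPM in endocardial cells, 4.48 to 16.3 CPM in fibroblasts and 46.5 to 251 CPM in macrophages. Of the 115 capillary Cox6a2 UMIs, 24 were in cells without a cardiomyocyte marker UMI, and those cells were 63.5% to 76.1% of the capillary cells. In macrophages 67 of 204 were in such cells, which were 71.3% to 77.3% of the macrophages. Cox8b measured 5.03 to 17.6 CPM in capillary cells with 56 of 106 UMIs in cells without such a UMI. It measured at most 2.53 CPM in endocardial cells, with 4 of 24 UMIs in such cells, and 2.01, 0.976 and 11.2 CPM in fibroblasts, with 22 of 25. The part of cardiomyocyte RNA in the levels of the muscle isoforms was not tested.

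Cox7a1 measured 15.8, 9.76 and 11.2 CPM in fibroblasts, and 137 of its 164 fibroblast UMIs were in cells without a cardiomyocyte marker UMI, at 11.3 to 16.1 CPM. Such cells were 81.1% to 93.8% of the fibroblasts. In capillary cells it measured 6.39 to 8.96 CPM, with 43 of 100 UMIs in such cells. In macrophages Cox7a1 measured 8.45, 19.1 and 8.26 CPM, with 254 of 434 UMIs in such cells, at 7.95 to 11.2 CPM. Such cells were 71.3% to 77.3% of the macrophages. In endocardial cells it measured 3.38 to 5.75 CPM, with 31 of 65 UMIs in such cells, which were 75.7% to 89.2% of the endocardial cells. Cox6b2, known from testis, measured 8.45, 14.5 and 16.1 CPM in macrophages, and 501 of 732 UMIs were in cells without a cardiomyocyte marker UMI. It measured 0.830 to 2.21 CPM in capillary cells, 0.876 to 11.49 CPM in endocardial cells, and 0 to 4.88 CPM in fibroblasts. The 11.49 CPM come from 4 UMIs. These genes were below the filter and were not tested. Cox7b2 had 3 UMIs in all, in endocardial cells of cKit+/DDR2- replicate 2. Its 0 UMIs in macrophages allow up to 0.0652 CPM over the 3 samples. Atp5s measured 0 to 10.5 CPM in all samples.

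**Figure D4:**
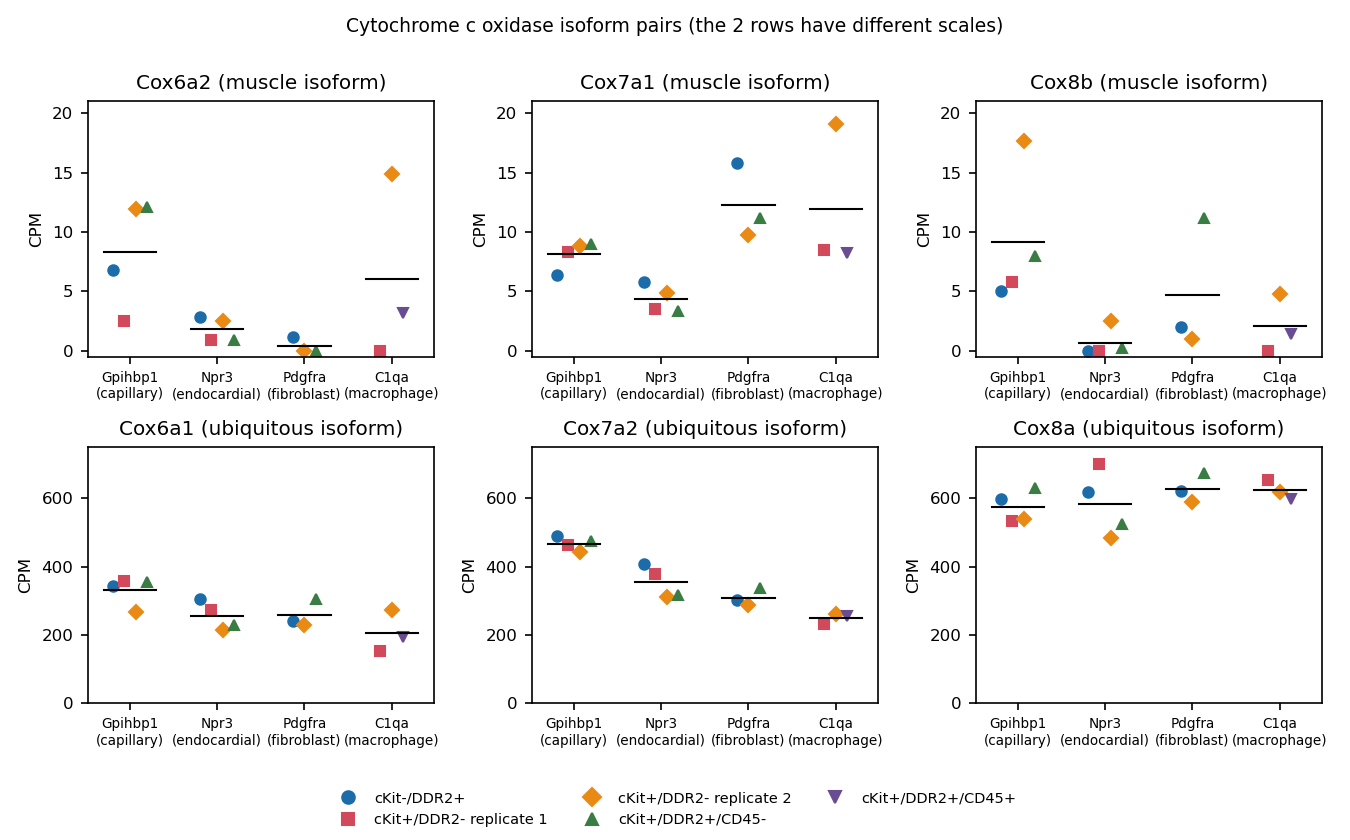
Level in CPM (vertical axes, on different scales in the upper and lower row) of 3 muscle isoforms of cytochrome c oxidase and of the isoforms of other tissues, in each summed sample, with the mean over libraries as a line. The muscle isoforms lie between 0 and 19.1 CPM in every gate, and Cox7a1 is between 9.76 and 15.8 CPM in fibroblasts and between 8.26 and 19.1 CPM in macrophages.

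Sorted fractions were compared within a gate, and the members named here were chosen after their values were seen. With 1 library in 3 of the 4 sorts there is no test, and members are described by size: a gene of at least 50 CPM on either side was counted where it was 2-fold apart, and in both cKit+/DDR2- libraries where these were the second side. In capillary cells no member was 2-fold apart between cKit+/DDR2+/CD45- and cKit-/DDR2+, where 2.94% of all genes were, or between cKit+/DDR2+/CD45- and cKit+/DDR2-, where 2.63% were. The members' medians were 0.03 and 0.09 on the log2 scale, against -0.08 and -0.04 for all genes. Ndufa8 stood farthest from cKit+/DDR2-, at 293 CPM against 202 and 206 CPM, with log2 ratios of 0.52 and 0.50 (95% exact counting intervals 0.33 to 0.74 and 0.35 to 0.67). Atp5j followed, with 712 CPM against 601 and 530 CPM. Both members were at 294 and 731 CPM in cKit-/DDR2+, whose Gpihbp1 gate held the fewest lymphatic-marked cells. The part of lymphatic-marked cells in these 2 genes was not tested, and without such cells the members' medians were 0.03 and 0.09. In Cox7b, 254 CPM in cKit+/DDR2+/CD45- stood against 187 CPM in cKit-/DDR2+, a log2 ratio of 0.43 (0.31 to 0.57).

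In endocardial cells no member was 2-fold apart between cKit+/DDR2+/CD45- and cKit+/DDR2- (0.352% of all genes were), and as a mean over the 2 replicates all members lay within -0.21 and 0.14. The 2 replicates gave opposite signs: the members' median was -0.23 against replicate 1 and 0.11 against replicate 2. In macrophages no member was 2-fold apart between cKit+/DDR2+/CD45+ and cKit+/DDR2- (0.136% of all genes), with a median of 0.00, against 0.02 for all genes. In fibroblasts, cKit-/DDR2+ against cKit+/DDR2- replicate 2 gave no member 2-fold apart (2.03% of all genes), a median of 0.12 against 0.04 for all genes, and Ndufs3, a core subunit of complex I, as the farthest member (84.8 against 56.6 CPM, log2 ratio 0.54, 95% exact interval 0.20 to 0.99). The 32 fibroblasts of cKit+/DDR2+/CD45- against those of cKit-/DDR2+ gave none either (2.38% of all genes), with a median of 0.04 against 0.02 for all genes. Uqcrc2 was farthest, at 130 against 90.1 CPM (0.50; 0.12 to 0.91).

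As a yardstick, the cKit+/DDR2- replicates were set against each other. In endocardial cells, 72 of 73 members were lower in replicate 2 than in replicate 1, with a median of -0.34 against -0.07 for all genes. No member was 2-fold apart (2.86% of all genes), and the farthest was Atp5k, subunit e of ATP synthase, at 140 against 233 CPM (log2 ratio -0.72, 95% exact interval -0.93 to -0.54). Ndufv1 alone was not lower, at 56.6 against 54.3 CPM. Gm42418 took 11.2% of endocardial UMIs in replicate 2 against 1.53% in replicate 1. With mitochondrial, ribosomal protein, Gm42418 and Lars2 UMIs left out of the total, the members' share was 2.01% in replicate 2 and 2.46% in replicate 1, and the part of these transcripts in the difference was not tested. In capillary cells of the same replicates the members' median was -0.07 against -0.05, and they spread from -0.50 (Ndufa4) to 0.51 (Ndufv1), with none 2-fold apart (3.56% of all genes). In macrophages the median was 0.09 against -0.06, and Ndufs6 and Uqcrq were 2-fold higher in replicate 2 (6.91% of all genes were 2-fold apart either way), with log2 ratios of 1.24 (0.45 to 2.41) and 1.18 (0.61 to 1.90).

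**Figure D5:**
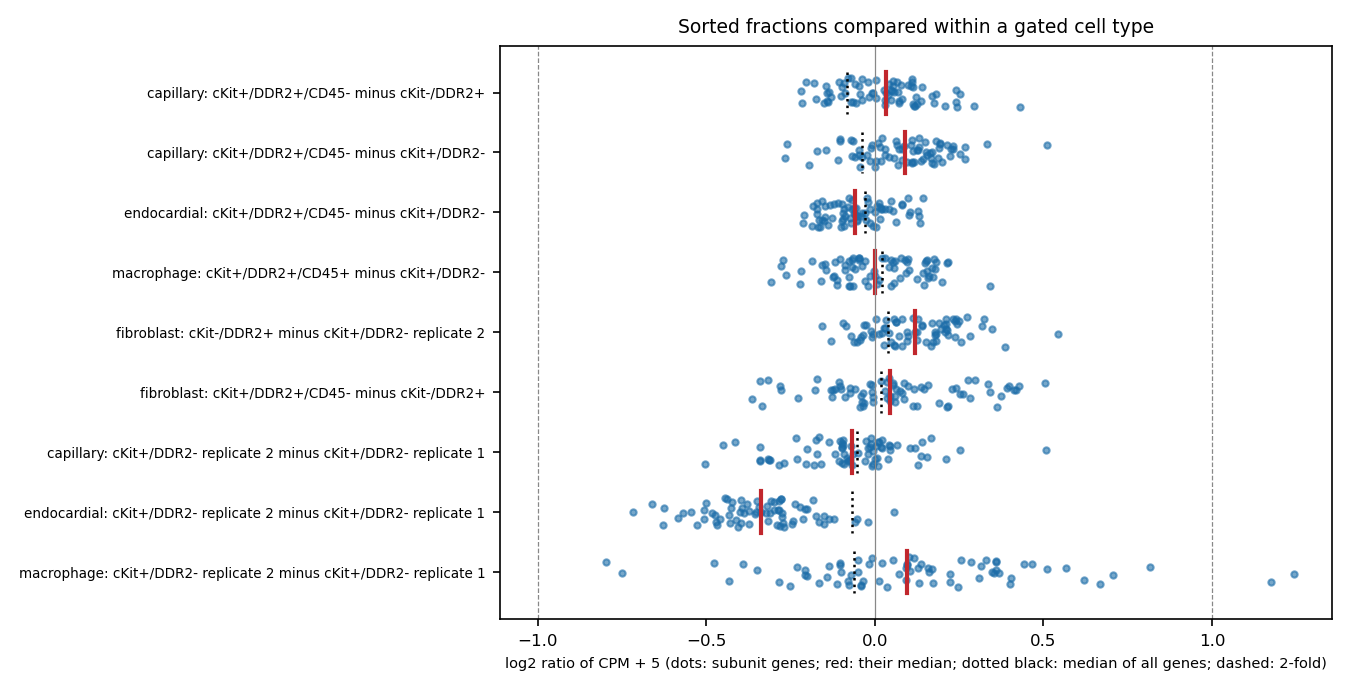
Log2 ratio of CPM + 5 (horizontal axis) of the members (dots) in 6 comparisons of sorts and in 3 comparisons of the cKit+/DDR2- replicates (lowest 3 rows), with the members' median in red and that of all genes dotted. Members stay within 2-fold (dashed) in all rows except macrophages of the replicates, and the endocardial replicates stand apart with a median of -0.34.

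Other genes of the pathway came from lists of known function. Their counts stand beside 16.7%, 23.6% and 33.5% of all genes lower and 11.8%, 17.0% and 14.4% higher in endocardial cells, fibroblasts and macrophages, with medians of -0.07, -0.10 and -0.27, and no list was tested against other genes. Of the 13 mitochondrially encoded subunits, 4 were lower and 1 higher in endocardial cells (median -0.22), 2 were higher in fibroblasts (median 0.09), and 4 were higher and 1 lower in macrophages (median 0.17). The nuclear members gave 0, 1 and 0 higher and 20, 20 and 28 lower, and the difference between the 2 sets was not tested. mt-Nd1, a core subunit of complex I, was 1.65-fold lower in endocardial cells (adjusted p = 0.00160) and 1.38-fold higher in macrophages (adjusted p = 0.0450), and mt-Co3, a core subunit of complex IV, was 1.48-fold higher in macrophages (adjusted p = 0.00231). Of 74 tested mitochondrial ribosomal proteins, 12 were lower in endocardial cells and 0 higher, 2 lower and 3 higher in fibroblasts, and 7 lower and 1 higher in macrophages. Of 35 tested assembly factors, 2 were lower in endocardial cells, 4 lower and 3 higher in fibroblasts, and 9 lower and 4 higher in macrophages. Cox17, which carries copper to cytochrome c oxidase, was 1.72-fold lower in fibroblasts (adjusted p = 0.000261).

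Of 9 electron carrier genes, 1 was lower in endocardial cells (Cycs, cytochrome c, 1.84-fold; adjusted p = 0.00195), 1 higher in fibroblasts (Etfa, of the electron transfer flavoprotein, 2.16-fold; adjusted p = 0.00119) and 1 lower in macrophages (Cycs, 1.52-fold; adjusted p = 0.0382). Of 14 tricarboxylic acid cycle genes, 2 were lower in endocardial cells, 1 was higher and 1 lower in fibroblasts, and 1 was higher and 3 lower in macrophages. Idh2, which makes mitochondrial NADPH, was 1.51-fold lower in endocardial cells (adjusted p = 0.0249) and 1.69-fold higher in macrophages (adjusted p = 0.0171). Of 13 fatty acid oxidation genes, 1 was higher in endocardial cells (Cpt1a), 3 were higher in fibroblasts (Decr1, Acaa2 and Acadvl), and 6 were lower in macrophages, among them Acaa2 and Acadl (2.45-fold and 2.05-fold; adjusted p = 0.00385 and 0.00247).

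Of 9 tested genes of adenine nucleotide exchange and coupling, 2 were higher and 3 lower in endocardial cells, 2 higher and 3 lower in fibroblasts, and 2 higher and 1 lower in macrophages. Ucp2, a carrier of the inner membrane, measured 173 to 292 CPM in capillary cells, 53.6 to 59.7 CPM in fibroblasts and 638 to 785 CPM in macrophages, 3.62-fold lower and 3.27-fold higher (adjusted p = 2.72e-06 and 1.8e-05). Slc25a4 and Slc25a5 encode exchangers of ADP and ATP. Slc25a5 was 2.04-fold lower in endocardial cells (adjusted p = 0.000606) and 1.77-fold lower in fibroblasts (adjusted p = 0.00330), and Slc25a4 was 1.68-fold higher in fibroblasts (adjusted p = 0.000140) and 1.95-fold lower in macrophages (adjusted p = 5.96e-05). Atpif1, the inhibitor of ATP hydrolysis by complex V, was 2.11-fold higher in macrophages (adjusted p = 0.000171). Of 8 tested regulators of mitochondrial gene expression, 2 were lower in endocardial cells (Gabpa and Polg), 2 in fibroblasts (Yy1 and Nrf1) and 3 in macrophages (Polg, Gabpa and Yy1), and 0 were higher. The low-oxygen isoforms left out of the rule varied between libraries within the capillary gate: Cox4i2 measured 96.4, 4.98, 20.3 and 42.9 CPM and Ndufa4l2 91.4, 7.47, 9.71 and 41.9 CPM. Cox4i2 measured at most 2.87 CPM in endocardial cells and 1.47 CPM in macrophages, and Ndufa4l2 108 to 159 CPM in fibroblasts, 4.07-fold higher than in capillary cells (adjusted p = 0.0136). In capillary cells the 5 pericyte markers summed to 225 to 1232 CPM, against 104 to 146 CPM in endocardial cells and fibroblasts, and their part in these capillary values was not tested.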

How the data were processed

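Values were deposited by the authors as natural log values per cell, ln(1 + UMIs scaled to 10000 per cell). Reads were processed with Cell Ranger (version not given in the sources used here), Seurat 4.0.4 and mm10, per the submitters' processing notes. Whole UMIs were recovered from the steps of the values (100% within 0.01 of a whole number), gated cells needed 500 UMIs and 200 genes, and no doublet caller was run beyond the marker gates. UMIs were summed per library and gate and tested with limma 3.58.1 (R 4.3.3, trend) on log2(CPM + 5), with a library term and Benjamini-Hochberg adjustment. Other steps used Python 3.11.15, numpy 2.4.6, scipy 1.17.1, pandas 2.3.3 and matplotlib 3.10.9. The fit was tried on simulated counts whose libraries differed only in depth, unlike these libraries, so its error rates for these data are not known. The members and lists were chosen with earlier results of these data known. Named were the 8 called members with the largest change each way per comparison, the isoform families, members 2-fold apart between sorts and up to 4 called genes per list. Alternatives changed the gate, minimum cell number, pseudocount, filter, scaling, weighting and libraries. Those with the shared barcodes, without lymphatic-marked cells, without cells with cardiomyocyte UMIs, and the fibroblast comparison of cKit+/DDR2+/CD45- were chosen after seeing the data. Values of some members are not reported here.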

Additional observations from a re-analysis of the deposited data

How the results depend on the processing

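Of the 33 called differences that the rule for named members gave (not Ndufc2 and Ndufs5 in fibroblasts or Atp5o.1 in macrophages), 19 were called in all 20 alternative settings, and none of the 33 reversed. Without 1 library each, the count of lower members ranged from 6 to 24 in endocardial cells, from 12 to 23 in fibroblasts and from 7 to 28 in macrophages, and the count of higher members in fibroblasts from 1 to 2. Of all genes, 10.6% to 16.7% were lower there in endocardial cells, 16.25% to 23.8% in fibroblasts and 20.8% to 33.8% in macrophages. The count of 28 is from the setting without cKit+/DDR2+/CD45+. That setting, 1 of the 20, could not change the fitted differences, as the library term absorbs that library's only summed sample. In endocardial cells, 39 members were lower and 2 higher when cells were gated by their higher marker, 45 and 1 with voom, 12 lower with the shared barcodes, and 1 higher without lymphatic-marked cells. All genes were lower in 21.4%, 29.5% and 10.2% with the higher marker, with voom and with the shared barcodes. In fibroblasts, 3 members were higher with median-of-ratios size factors and 4 with voom, and 13 were lower with the shared barcodes. In macrophages, 8 were lower with at least 50 cells per sample, 18 lower and 1 higher with no filter, 6 lower and 4 higher with median-of-ratios size factors, and 6 lower without cells with cardiomyocyte UMIs, which like the 50-cell minimum leaves out the cKit+/DDR2- replicate 1 sample. In that order, 26.1%, 16.95%, 25.4% and 20.1% of all genes were lower. With mitochondrial, ribosomal protein, Gm42418 and Lars2 UMIs left out of the total, the members' share became 2.5%, 2.245%, 2.135% and 2.007% in capillary, endocardial, fibroblast and macrophage gates, and the macrophage share as a mean over cells was 1.465%. The capillary medians of cKit+/DDR2+/CD45- against cKit-/DDR2+ and against cKit+/DDR2- became 0.16 and 0.17 with that total, and 0.11 and 0.16 with median-of-ratios size factors. Beyond the fewer samples or cells that some settings leave, the cause was not tested. No paired analysis was possible because the replicate numbers pair no sorts, 3 of which have 1 library and their comparison has no test. Cell types were compared within libraries, and without the library term 19, 20 and 38 members were lower in endocardial cells, fibroblasts and macrophages (all genes 15.2%, 22.4% and 35.3%). The 22 macrophages and 32 fibroblasts of the smallest samples, with 3 or 4 libraries per type and no label that makes them separate animals, limit what can be told apart, and members of low level such as Cox8b were not tested.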
